A study of Mus musculus with 10 samples.

Results

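Imprinted genes were followed across 10 two-colour arrays of mouse hemibrain RNA. The members were 10 genes named for being expressed mainly from a single parental copy: Meg3, H19, Igf2, Snrpn, Peg3, Ndn, Magel2, Peg10, Cdkn1c and Dlk1. They were found through the transcript accession that each probe carries, matched to RefSeq gene records. Of 41174 probes on the array, 16 belonged to a member, and these covered 9 of the 10 genes among 18539 genes named in all. No probe was matched to H19, a non-coding RNA next to Igf2, so H19 was not measured here.

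Each array held Cy-5 labelled RNA of the left hemibrain of a male C57BL/6J mouse. Mice bought at 3 weeks of age were caged singly and kept on their diet for about 20 weeks, to an age of 5 months. The study compared a diet rich in n-3 fatty acids from fish oil (FD) with a standard laboratory diet (SD). The diet label of the Cy-5 RNA reads FD on all 10 arrays, a second label calls the same arrays controls, and the methods describe mice of both diets, so the diet of an array was not settled and no comparison of diets was made. The Cy-3 RNA was a reference common to the arrays, named as pooled hemibrain of SD mice in some labels and as a commercial reference RNA in the labelling protocol. Values are therefore given for each array, named by its animal, with ranges and medians.

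Genomic imprinting marks the maternal and the paternal copy of a gene differently, mostly through DNA methylation at control regions, so that only the copy from a given parent is used. Imprinted genes lie in clusters, and neighbours in a cluster are often expressed from opposite parental copies. Many of them act in fetal growth, in placenta and in brain, and the hypothalamus, choroid plexus and meninges are known sites of expression in the adult brain. The arrays measured the total RNA of a gene and did not separate the parental copies.

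Neighbouring members that were both measured were Dlk1 and Meg3, 77.7 kb apart on chromosome 12, and Ndn and Magel2, 27.1 kb apart on chromosome 7. H19 lies 72.6 kb from Igf2. Their promoter windows are shown because Dlk1 and Meg3 had ratios of opposite sign, while Ndn and Magel2 had ratios of the same sign and very different spread. In Cy-3, the reference, the log2 signal ranged over 0.67 for Ndn and 2.11 for Magel2. In Cy-5, the hemibrain RNA, the ranges were 0.75 and 0.64. Each sequence is the RefSeq window of 300 bases in build GRCm38.p6, from 250 bases before the annotated start to 50 after it, on the plus strand, with every CG, the dinucleotide that is methylated in mammals, in capitals. The windows are chr12:109452573-109452872 for Dlk1, chr12:109540746-109541045 for Meg3, chr7:62348027-62348326 for Ndn and chr7:62376729-62377028 for Magel2. The Dlk1 window follows an annotated start inside the gene. The Dlk1 gene record begins earlier, at base 109452485, which the window does not cover.
Dlk1: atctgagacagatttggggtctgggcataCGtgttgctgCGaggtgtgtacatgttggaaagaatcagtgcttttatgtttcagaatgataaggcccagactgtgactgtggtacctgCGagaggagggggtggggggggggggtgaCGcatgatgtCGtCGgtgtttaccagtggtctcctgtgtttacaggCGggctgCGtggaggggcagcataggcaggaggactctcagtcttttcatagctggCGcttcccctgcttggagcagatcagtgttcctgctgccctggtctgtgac
Meg3: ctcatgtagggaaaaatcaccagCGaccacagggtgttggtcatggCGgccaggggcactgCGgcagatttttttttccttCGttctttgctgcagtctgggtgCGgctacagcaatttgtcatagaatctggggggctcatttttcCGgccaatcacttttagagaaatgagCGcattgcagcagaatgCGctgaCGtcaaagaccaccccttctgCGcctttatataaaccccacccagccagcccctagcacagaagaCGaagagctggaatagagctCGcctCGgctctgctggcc
Ndn: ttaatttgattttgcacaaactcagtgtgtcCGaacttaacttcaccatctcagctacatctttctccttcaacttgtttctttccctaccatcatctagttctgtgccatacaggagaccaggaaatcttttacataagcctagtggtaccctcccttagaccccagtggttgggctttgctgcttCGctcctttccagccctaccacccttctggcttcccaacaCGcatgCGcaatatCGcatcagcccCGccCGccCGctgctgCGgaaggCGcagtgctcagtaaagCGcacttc
Magel2: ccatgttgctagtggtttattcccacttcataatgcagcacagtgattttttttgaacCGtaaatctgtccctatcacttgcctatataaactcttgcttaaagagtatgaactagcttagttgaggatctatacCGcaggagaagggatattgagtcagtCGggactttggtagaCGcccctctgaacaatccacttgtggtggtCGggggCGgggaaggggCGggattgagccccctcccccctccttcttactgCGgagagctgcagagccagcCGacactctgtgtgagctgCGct
The Dlk1 window held 9 CG, the Meg3 window 13, the Ndn window 11 and the Magel2 window 10. At least as many were found in 45.8%, 37.9%, 41.4% and 43.5% of 32851 RefSeq promoter windows, in the same order, so none of these windows stood out in its CG count. Another Meg3 window, not shown, held 1 CG, and 94.6% of windows held at least as many. Motifs were searched on both strands in the windows that 7 members had. The TATA box core TATAAA was in 13.6% of all windows. It was found in the Meg3 window shown, on both strands at overlapping positions, in the Magel2 window and in a window of Snrpn. The NRF1 motif was in 4.6% of all windows and in no member window. The CRE motif TGACGTCA, which reads the same on both strands, was in 1.79% of all windows, among them the Meg3 window shown and that of Peg3. It was added to the search after it had been seen in the Meg3 sequence, so its presence there is a description only.

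The technical state of the arrays bears on these values. The arrays lay on 4 slides, of which 2 held 4 arrays each. In Cy-5, 68.2% to 76.9% of probes were well above background on 9 arrays, and 49.8% on the array of animal C10-434. Markers of neurons, astrocytes, oligodendrocytes and microglia were detected in Cy-5 on all arrays, which fits the labelled tissue. The median log2 Cy-5/Cy-3 of the 10 neuron markers ranged from 5.92 to 7.35 and that of the 8 proliferation markers from -6.22 to -4.94, values that go against a hemibrain pool in Cy-3. In these whole hemibrains, fewer cells of a type and less RNA per cell cannot be told apart.

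Most members were higher in the hemibrain RNA than in the reference. With each gene taken at its brightest probe, 6 of 9 genes were at least 2-fold higher in Cy-5 on every array with a value, namely Snrpn, Peg3, Meg3, Magel2, Ndn and Cdkn1c, and Dlk1 alone was at least 2-fold lower. Over all 18537 genes with values, 16.5% were higher and 15.6% were lower by the same rule. With normexp background correction 3 members, Snrpn, Meg3 and Ndn, were higher and 0 lower, against 3.87% and 2.19% of all genes; the Dlk1 ratio then ran from -3.16 to -0.70. The median over the 9 members was 3.46 on the log2 scale of Cy-5/Cy-3, against 0.06 over all genes. The order of the medians was Snrpn 6.33, Peg3 3.88, Meg3 3.73, Magel2 3.69, Ndn 3.46, Cdkn1c 1.56, Igf2 0.90, Peg10 -1.85 and Dlk1 -3.24. Peg3 exceeded Meg3 on 5 of 10 arrays, Meg3 exceeded Magel2 on 6 and Magel2 exceeded Ndn on 6, so these 4 neighbours in the order were not separated at their brightest probes. With the median over all probes of a gene, the Meg3 median was 5.95 and the Peg3 median 2.55, so the order of these genes depended on the probe. Ndn exceeded Cdkn1c, and Cdkn1c exceeded the brightest Igf2 probe, on all 10 arrays. The other Igf2 probe was above Cdkn1c on C10-413 (1.99 against 1.55), C10-424 (1.43 against 1.30) and C10-437 (1.19 against 1.17). On the remaining arrays it was below Cdkn1c, so this order also depended on the probe.

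**Figure D1:**
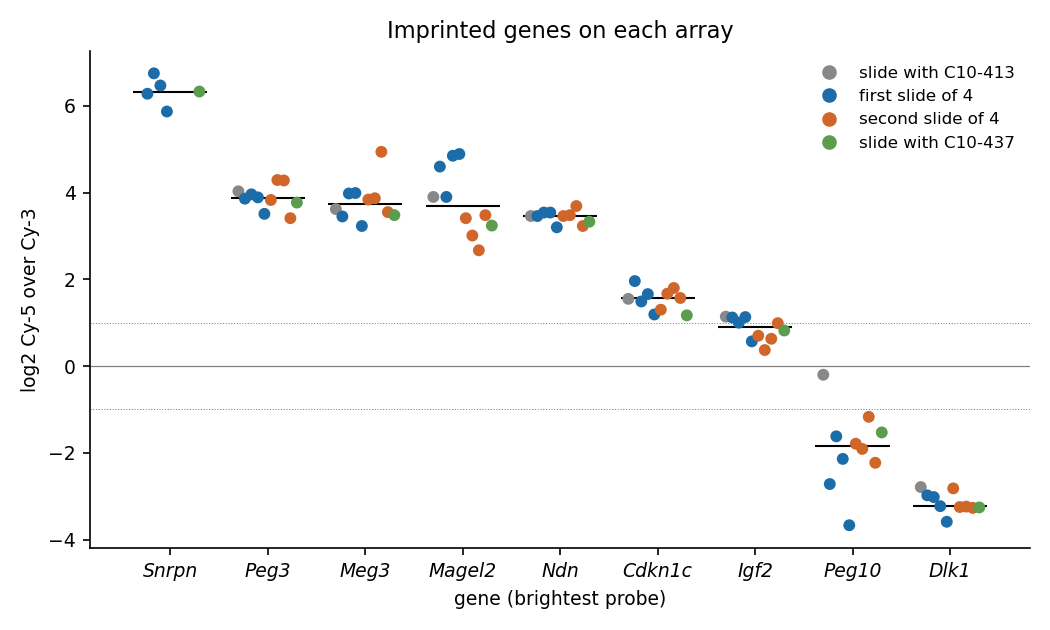
Log2 Cy-5/Cy-3 (y axis) of the brightest probe of each imprinted gene (x axis); each point is an array, coloured by slide, the black line is the median and the dotted lines mark 2-fold. Snrpn lies highest with a median of 6.33, Dlk1 lies lowest at -3.24, and Magel2 shows its 4 values of the first slide of 4 at 3.90 to 4.89, above the 2.67 to 3.48 of the second.

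Dlk1 and Meg3 differed in direction. Dlk1 encodes a transmembrane ligand-like protein of the Notch pathway family and is expressed from the paternal copy. Its log2 Cy-5/Cy-3 was -2.79 on C10-413, -2.98 on C10-415, -3.02 on C10-416, -3.23 on C10-417, -3.59 on C10-423, -2.82 on C10-424, -3.25 on C10-425, -3.24 on C10-434, -3.27 on C10-435 and -3.26 on C10-437. All 10 arrays were low within a range of 0.79, and 50.1% of 10533 genes measured in both dyes on all arrays had a smaller range. The Dlk1 signal was 619 to 2118 in Cy-5 and 5858 to 14668 in Cy-3, so the gene was well measured in both dyes.

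Meg3 is a maternally expressed long non-coding RNA, and its 5 probes fell into 2 sets by the transcript record they carry. The 3 probes of the first record had medians of 6.04, 6.96 and 6.43, and the 2 probes of the second had medians of 3.73 and 4.12. Every probe of the first record exceeded both probes of the second on each array where both had a value, by 1.59 at the least. Within the second record, A_52_P391505 exceeded A_51_P455997 by only 0.14 to 0.58. The brightest Meg3 probe, A_51_P455997, gave 3.62, 3.45, 3.98, 3.99, 3.23, 3.84, 3.87, 4.94, 3.55 and 3.48 on C10-413, C10-415, C10-416, C10-417, C10-423, C10-424, C10-425, C10-434, C10-435 and C10-437. The value of C10-434 stood above the other arrays, which ended at 3.99. Its Cy-3 signal was 4137 there and 13169 to 22028 elsewhere, while its Cy-5 signal was 126812 there and 193762 to 270655 elsewhere. On the same array the neuron list was also at its highest in the ratio, by 1.07 over its genes' own medians, and at -0.11 in Cy-5 alone, within the range of the other arrays of -0.18 to 0.11. The part of the dim array in the Meg3 value was not tested. Without C10-434 the Meg3 range was 3.23 to 3.99.

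**Figure D2:**
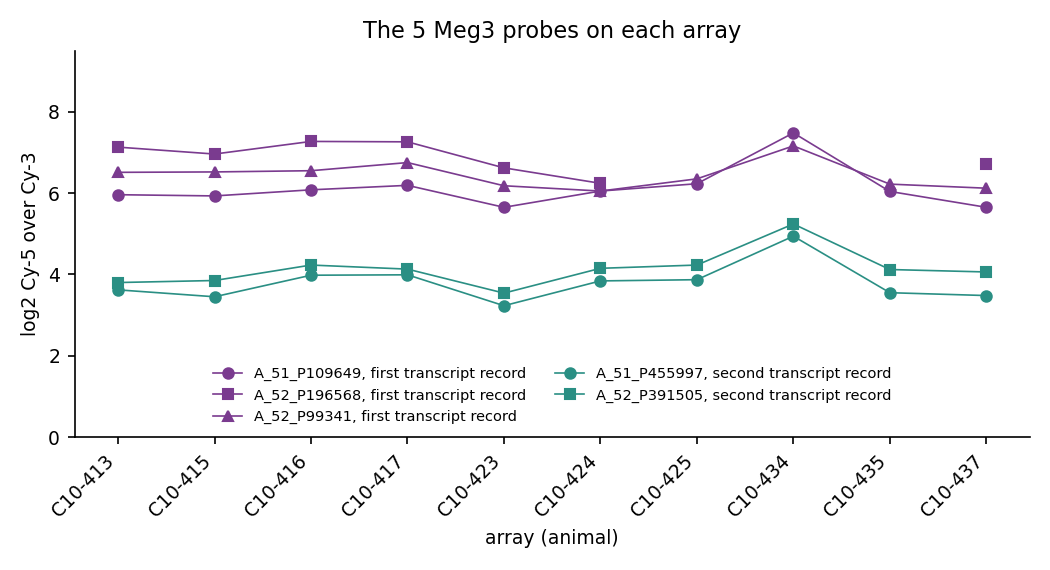
Log2 Cy-5/Cy-3 (y axis) of the 5 Meg3 probes on each array (x axis), coloured by the transcript record a probe carries; gaps are spots flagged as outliers. The 3 probes of the first record lie at medians of 6.04 to 6.96, the 2 of the second at 3.73 and 4.12, and C10-434 is the highest array for all 4 probes with a value there.

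Snrpn, Ndn and Magel2 belong to a paternally expressed region on chromosome 7 whose human counterpart is lost in Prader-Willi syndrome. Snrpn encodes a spliceosome protein that is abundant in neurons. Its brightest probe was flagged as an outlier on 5 arrays and gave 6.28, 6.75, 6.47, 5.87 and 6.33 on C10-415, C10-416, C10-417, C10-423 and C10-437. Its other probe, with 8 arrays, ranged from 5.54 to 6.44, so both probes placed Snrpn far above the reference. Snurf, which shares its transcript unit with Snrpn, had a median of 4.88.

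Ndn encodes necdin, a protein of the MAGE family found in postmitotic neurons. Its log2 Cy-5/Cy-3 was 3.46 on C10-413, 3.46 on C10-415, 3.54 on C10-416, 3.54 on C10-417, 3.20 on C10-423, 3.46 on C10-424, 3.48 on C10-425, 3.69 on C10-434, 3.23 on C10-435 and 3.33 on C10-437. The range of 0.48 was the narrowest among the members in the ratio, and 11.4% of the 10533 measured genes had a smaller range.

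Magel2, also of the MAGE family and known for its expression in the hypothalamus, varied more than its neighbour in the ratio and not in the hemibrain signal. In Cy-5 alone its range over the arrays was 0.64 and that of Ndn 0.75, while in Cy-3 alone the ranges were 2.11 and 0.67. Its log2 Cy-5/Cy-3 was 4.60, 3.90, 4.85 and 4.89 on C10-415, C10-416, C10-417 and C10-423, which shared the first slide of 4. It was 3.41, 3.01, 2.67 and 3.48 on C10-424, C10-425, C10-434 and C10-435, which shared the second. C10-413 and C10-437, on slides of their own here, gave 3.90 and 3.24. The 2 slides of 4 did not overlap, and 99% of the measured genes had a smaller range than the 2.22 of Magel2.

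The second slide was lower than the first by a log2 difference of -1.42 (SE 0.27) for Magel2, with an adjusted p of 0.101 by limma over 40299 probes, so the difference did not pass the threshold of 0.05. In that comparison 0.0744% of all probes were called, and 0 of 14 member probes. At an unadjusted p under 0.05, 10% of all probes and 1 member probe, that of Magel2, passed. The slides differ in animals and labelling as well, which cannot be told apart. With each dye on its own, Magel2 differed by 0.06 in Cy-5 (adjusted p = 0.955 by limma) and by 1.48 in Cy-3 (adjusted p = 0.00444 by limma). The Magel2 signal in Cy-3, the common reference, was 61.2 to 117 on the first slide of 4 and 125 to 227 on the second, against 792 to 2420 in Cy-5 over all arrays. The lowest Cy-3 signal of any probe well above background also differed, at 32.5 to 37.35 on the first and 51.51 to 65.73 on the second. Its part in the Magel2 difference was not tested. In Cy-3 alone 13% of all probes were called between the slides, and 2 of 14 member probes, the other being Peg3 A_52_P235861, higher by 0.39 on the second slide (adjusted p = 0.0309 by limma). In Cy-5 alone 6.71% of all probes and 0 member probes were called. Ndn differed by 0.15 in Cy-3 (adjusted p = 0.518 by limma).

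**Figure D3:**
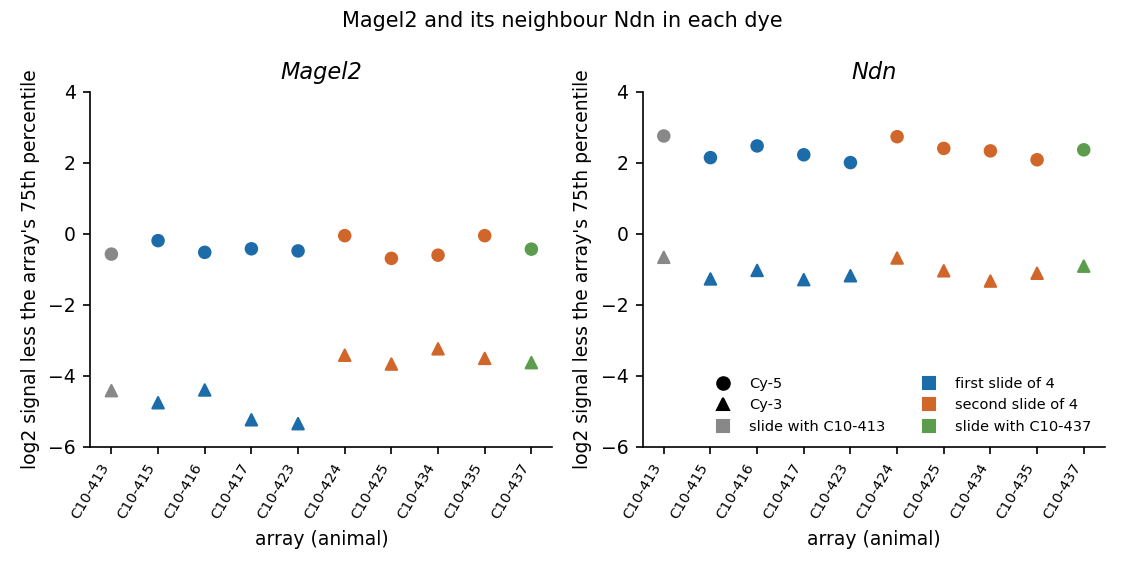
Log2 processed signal less the array's 75th percentile (y axis) for Magel2 and Ndn on each array (x axis), with circles for Cy-5, triangles for Cy-3 and colours for slides. Magel2 lies between -0.69 and -0.05 in Cy-5 on all arrays, while its Cy-3 values lie between -5.35 and -4.40 on the first slide of 4 and between -3.67 and -3.24 on the second.

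Peg3 is a paternally expressed zinc finger gene. Its brighter probe gave 4.03, 3.86, 3.96, 3.89, 3.51, 3.83, 4.29, 4.28, 3.41 and 3.77 on C10-413, C10-415, C10-416, C10-417, C10-423, C10-424, C10-425, C10-434, C10-435 and C10-437. The dimmer probe was lower on every array, by 1.95 to 3.39, with a range of 0.49 to 2.01. Both probes were higher in the hemibrain RNA, yet they differed in the size of that ratio by more than any array differed from another.

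Igf2 and Cdkn1c act on growth in opposite ways and lie 792 kb apart on chromosome 7. Igf2 encodes a growth factor that in the adult brain is known mainly from choroid plexus and meninges. Its brightest probe, printed in 10 spots per array, gave 1.14 on C10-413, 1.12 on C10-415, 1.00 on C10-416, 1.13 on C10-417, 0.57 on C10-423, 0.70 on C10-424, 0.37 on C10-425, 0.63 on C10-434, 0.99 on C10-435 and 0.82 on C10-437. The SD over the spots of an array was 0.044 to 0.144 (n = 10 spots), and the SD of the array values was 0.27. On C10-434 the spots ran from 0.33 to 0.83. The other Igf2 probe ranged from 0.20 to 1.99. Cdkn1c encodes a maternally expressed inhibitor of the cell cycle. Its values were 1.55, 1.96, 1.49, 1.66, 1.19, 1.30, 1.67, 1.80, 1.57 and 1.17 on C10-413, C10-415, C10-416, C10-417, C10-423, C10-424, C10-425, C10-434, C10-435 and C10-437, all above 2-fold.

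Peg10, a paternally expressed gene derived from a retrotransposon and known for its role in placenta, was near the limit of the arrays. The Cy-5 signal of its probe cleared the background on 1 array, and the Cy-3 signal did so on 7. On 6 arrays a bound could be set, with Cy-3 at least 1.4-fold to at least 3.04-fold higher than Cy-5. The bound takes the dimmer dye at the lowest signal well above background on that array. The measured log2 ratios of -3.67 to -0.20 therefore give no order among arrays.

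Across the arrays, 7 relations between members and lists of marker genes were computed. A list's value on an array was the median over its genes of log2 Cy-5/Cy-3, less each gene's own median. Igf2 moved with the choroid plexus list, with r = 0.79 (permutation p = 0.00712, adjusted p = 0.0498) and rho = 0.78 (permutation p = 0.0102, adjusted p = 0.0715). After adjustment r passed the threshold of 0.05 and rho did not. The list stood at 0.52, 0.30 and 0.28 on C10-415, C10-417 and C10-416 and at -0.55 on both C10-425 and C10-434. Without the 2 arrays farthest from the list's median r was 0.63 (permutation test, adjusted p = 0.696), and rho 0.67, and without C10-434 it was 0.78 (permutation test, adjusted p = 0.0918). With the leptomeninges list Igf2 gave r = 0.60 and rho = 0.62 (permutation test for r, adjusted p = 0.247). Of the choroid plexus list 7 of 8 genes had a probe and 6 were detected in Cy-5 on all arrays. In Cy-3, the divisor of the ratio, Otx2 and Sostdc1 were well above background on 0 arrays and Kl on 5. Ttr and Clic6 were so on 9 arrays, and only Folr1 and Slc4a5 on all 10. Within the 2 slides of 4 arrays, with each value taken less the mean of its slide, r was 0.86 (exact permutation test within slides, adjusted p = 0.0365) and rho 0.90 (adjusted p = 0.17).

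Magel2 gave r = 0.24 and rho = 0.24 with the hypothalamus list in the ratio (permutation test, adjusted p = 0.793) and r = 0.88 in Cy-5 alone (permutation p = 0.002, adjusted p = 0.014; rho = 0.89, permutation p = 0.00116, adjusted p = 0.00812). In Cy-5 alone, less the 75th percentile of the array, Magel2 was highest on C10-424 and C10-435 at -0.05 and on C10-415 at -0.19, and lowest on C10-425 at -0.69. The list was highest on C10-415 at 0.40, on C10-435 at 0.37 and on C10-424 at 0.12, and lowest on C10-425 at -0.21. Without the 2 arrays farthest from the list's median r was 0.94 (permutation test, adjusted p = 0.00686). Within the slides of 4 it was 0.89 (exact permutation test, adjusted p = 0.0486; rho = 0.80, adjusted p = 0.219), and -0.23 in the ratio (exact permutation test, adjusted p = 0.714). The single hypothalamus marker Sim1 was not well above background on any array. In the ratio, Ndn gave r = 0.44 (rho = 0.39) and Peg3 r = 0.10 (rho = 0.07) with the same list. Dlk1 gave r = 0.19 (rho = 0.35) and Cdkn1c r = 0.11 (rho = -0.02) with the monoamine neuron list (permutation tests for the 4 values of r, adjusted p from 0.482 to 0.793). Of the 8 genes of that list, 4 were detected in Cy-5 on all arrays. In Cy-3, Slc6a4 was well above background on 0 arrays, Tph2 on 4, Slc6a3 on 7, Th on 9 and the others on all 10.

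**Figure D4:**
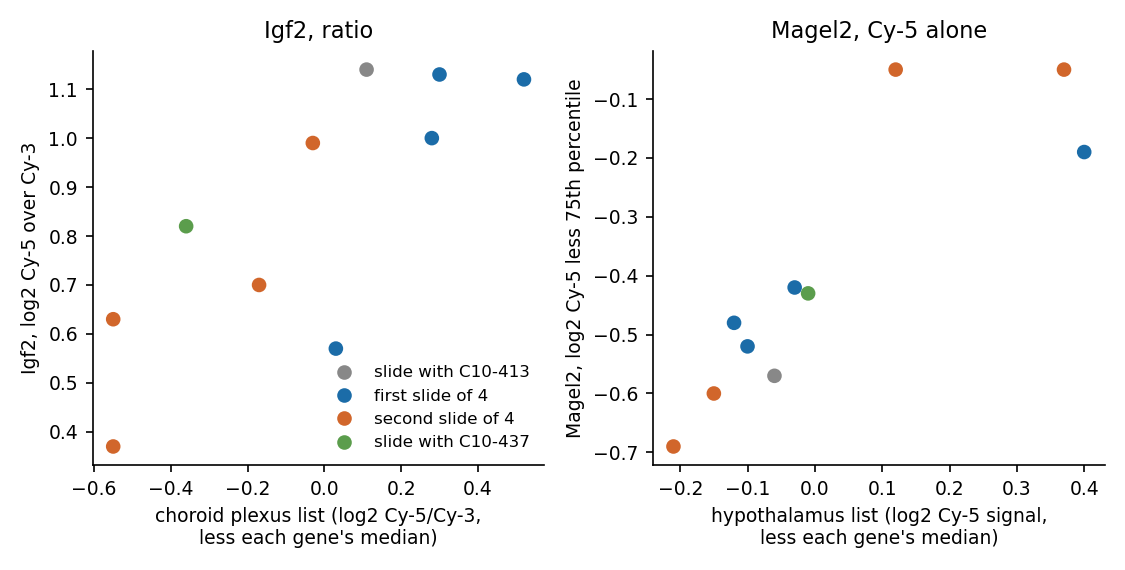
Left, log2 Cy-5/Cy-3 of Igf2 (y axis) against the choroid plexus list (x axis); right, log2 Cy-5 signal of Magel2 less the 75th percentile (y axis) against the hypothalamus list in Cy-5 alone (x axis). Each point is an array coloured by slide; r is 0.79 on the left and 0.88 on the right.

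The genes whose log2 Cy-5/Cy-3 was most like that of a member over the 10 arrays were taken from 10532 measured genes, as a description, since all points of an array share its labelling and depth. For Igf2 they were Aldh1a2 (r = 0.922), Hadhb (r = 0.897) and Lbp (r = 0.882). In Cy-5 alone these were 0.939, 0.845 and 0.817. Aldh1a2, a retinoic acid synthesis enzyme of the meninges, is a gene of the leptomeninges list. That list as a whole gave Igf2 r = 0.58 in Cy-5 alone (permutation test, adjusted p = 0.195) and rho = 0.36. For Magel2 they were Lum (r = 0.984), Aspa (r = 0.964) and Best1 (r = 0.937), which in Cy-5 alone fell to 0.328, 0.091 and 0.689 and in Cy-3 alone were 0.844, 0.886 and 0.918. For Meg3 they were Clstn3 (r = 0.974), Mbp (r = 0.967) and Plekhb1 (r = 0.962), and without C10-434 these were 0.903, 0.880 and 0.906. For Peg3 they included Crebzf and Eif4a1, for Ndn Tuft1, Ifitm3 and Tmem198, for Cdkn1c Cachd1, Unc13d and Usp36, and for Dlk1 Tbl3, Tmem97 and Tmem176a, with r from 0.894 to 0.971.

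Of 56 other imprinted genes, 49 had a probe. By the same rule 16 were at least 2-fold higher and 7 at least 2-fold lower on every array, against 16.5% and 15.6% of all genes, and their median was 0.38. In the Dlk1-Meg3 cluster both genes with a probe, the non-coding RNA Rian and the deiodinase Dio3, were higher, as Meg3 was and Dlk1 was not. Their Cy-3 signal was well above background on 3 and 6 arrays, and on the others Cy-5 was at least 7.55-fold higher for Rian and at least 19.6-fold higher for Dio3. In the cluster of Snrpn, Ndn and Magel2, Snurf was higher (4.34 to 5.83), Mkrn3 had measured ratios of -2.94 to -1.89 with a Cy-5 signal above background on 5 arrays and a bound of at least 1.06-fold to at least 5.22-fold on the others, and the ubiquitin ligase Ube3a (-0.50 to 0.59), Peg12 (-1.20 to -0.50) and Atp10a (-0.97 to -0.25) were neither. Next to Peg3, Usp29 was higher (3.52 to 5.27). Near Peg10, the synaptic protein gene Ppp1r9a (7.34 to 9.24) was higher and Pon3 (-3.81 to -3.28) was lower. The Cy-3 signal did not clear the background on 9 arrays for Asb4 and on 10 for Calcr, and Cy-5 was at least 2.67-fold higher for Asb4 and at least 4.14-fold higher for Calcr on the 9 arrays where a bound could be set. Sgce (0.68 to 1.28) and Pon2 (-0.91 to 0.24) were neither. Of the 11 genes around Igf2 and Cdkn1c, only Ins2 (1.84 to 2.36) was higher and only Tspan32 (-5.48 to -4.46) was lower. The others detected in a dye on all arrays were Cd81 (0.70 to 1.32), Nap1l4 (0.78 to 1.60), Tssc4 (-0.23 to 0.39), Kcnq1 (-0.38 to 0.06), Kcnq1ot1 (-0.58 to 0.55), Osbpl5 (-0.22 to 0.19), Ascl2 (-1.10 to -0.14) and Slc22a18 (-1.81 to -0.82). The 4 highest measured medians of the list were those of Nap1l5 (7.97), Ppp1r9a (7.96), Rasgrf1 (5.78) and Calcr (5.49), and the 4 lowest those of Tspan32 (-4.90), Pon3 (-3.47), Slc38a4 (-3.37) and Dcn (-2.92). The places of Calcr and Slc38a4 are not settled, since Calcr was above background in Cy-3 on 0 arrays and Slc38a4 in Cy-5 on 3. Between the slides of 4 arrays, 0 of 47 of these genes were called by limma, and 3, Ascl2, Zim1 and Calcr, had an unadjusted p under 0.05.

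**Figure D5:**
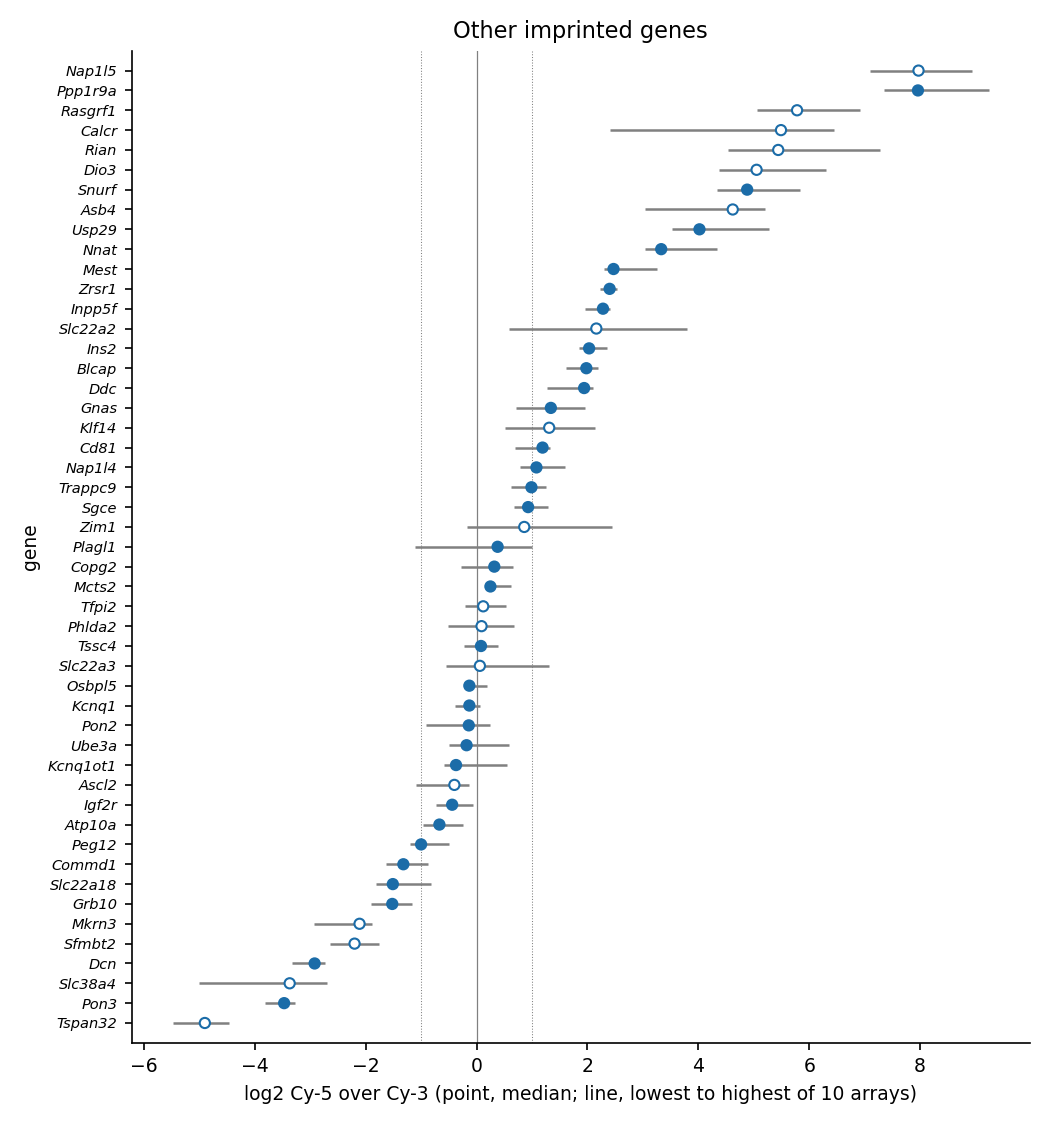
Log2 Cy-5/Cy-3 (x axis) of 49 other imprinted genes (y axis); the point is the median and the line runs from the lowest to the highest of 10 arrays, filled points are genes well above background in both dyes on all arrays, and dotted lines mark 2-fold. The medians run from -4.90 for Tspan32 to 7.97 for Nap1l5.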

How the data were processed

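The authors hybridised two-colour Agilent arrays and deposited the scanner output of each array (Feature Extraction 10.10.1.1 per the file headers). The deposited processed signals are intensities after background correction and dye normalization, the deposited log ratio of a spot is a log10 of Cy-5 over Cy-3, and the authors also deposited a table of log2 ratios, used here as an alternative. From the processed intensities log2 Cy-5/Cy-3 was computed, leaving out controls and flagged outlier spots and averaging repeat spots. No further normalization was applied. A probe was well above background when at least 0.5 of its spots were flagged so. Probes were named through RefSeq transcripts of GRCm38.p6, used for names, neighbours and promoter windows; 66.1% of probes matched. A gene was represented by its brightest probe. The number of arrays limits the precision.

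The members, gene lists and motifs were chosen with earlier results of these data known. All 10 members were named; of other imprinted genes, those in a member's cluster detected in a dye on all arrays and the 4 highest and 4 lowest; and, for each member measured in both dyes on all arrays without outlier flags, the 3 genes of highest r, of which 1 is not reported here. Zim1, outside that rule, was named after its value was seen. The slide comparison used limma 3.58.1 in R 4.3.3 with Benjamini-Hochberg adjustment at 0.05. On simulated data made from its 40299 probes, 71% of 200 probes changed by 2 on the log2 scale were recovered and 5 unchanged probes were called. Its p-values set the difference between the 2 slides against the spread of arrays within them, and animals and labelling differ between the slides as well. A gene's other probes entered an alternative that took the median over all its probes. Relations used two-sided permutation tests in Python 3.11.15, adjusted over 7 relations. Alternatives were loess, median centring, the deposited table, normexp with an offset of 50, kept outlier spots, other probe and fold rules, and left-out arrays. Floor subtraction, the slide comparison in each dye alone, that comparison with the background filter and loess together, relations with kept outlier spots, relations in Cy-5 alone with arrays left out, and relations within slides were chosen after seeing the data.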

Additional observations from a re-analysis of the deposited data

Results flagged for a closer look

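Of 13 member probes with a value on all 10 arrays, 3 had an array far from the others, all of them Meg3 probes on C10-434, the array with the fewest probes detected in Cy-5. The gap to the next array, as a share of the whole range, was 0.68 for A_51_P109649 (7.48, others 5.65 to 6.23), 0.56 for A_51_P455997 (4.94, others 3.23 to 3.99) and 0.59 for A_52_P391505 (5.24, others 3.54 to 4.23). Chance sets apart about 1 in 20 such groups, and the 3 probes measure the same gene on the same array.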

How the results depend on the processing

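With normexp the members at least 2-fold higher fell to 3 and those lower to 0, and the other imprinted genes to 5 and 1, while all genes fell to 3.87% higher and 2.19% lower. Among genes detected in both dyes on all arrays, 10 of 32 other imprinted genes were higher and 3 lower, against 18.3% and 16% of all genes. No member's median changed sign under any alternative. The slide comparison gave 0 calls with normexp and with floor subtraction, 0 to 18 when an array was left out in turn (18 without C10-423, 2 without C10-415, 0 without each other array), 2704 in Cy-5 alone and 5241 in Cy-3 alone. Member probes called were 2 in Cy-3 alone and 0 under each other alternative. The Magel2 slide difference of -1.42 became 0.06 in Cy-5 alone and 1.48 in Cy-3 alone. The sign in Cy-3 is opposite to that of the ratio because Cy-3 is the divisor, while its size was measured. With floor subtraction the adjusted p of the Magel2 difference by limma was 0.653.

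For Igf2 with choroid plexus, r was 0.75 with loess (permutation test, adjusted p = 0.101), 0.62 with floor subtraction (0.275), 0.77 with outlier spots kept (0.0701), 0.63 without the 2 farthest arrays (0.696), 0.78 without C10-434 (0.0918), 0.79 in Cy-5 alone without the 2 farthest arrays (0.0932) and 0.64 in Cy-5 alone within slides (0.228), none of which passed 0.05. It passed in Cy-5 alone (0.74, 0.0307), there without C10-434 (0.81, 0.0383) and within slides (0.86, 0.0365). Magel2 with hypothalamus reached r = 0.88 in Cy-5 alone, 0.87 there without C10-434, 0.94 without the 2 farthest arrays and 0.89 within slides. In the ratio it did not pass: 0.31 with loess (0.545), 0.59 with floor subtraction (0.275), 0.53 without C10-434 (0.301), 0.43 without the 2 farthest (0.764) and -0.23 within slides (0.714). Relations that never passed the threshold changed sign: Ndn with hypothalamus to -0.28 in Cy-5 alone, -0.22 with floor subtraction, -0.30 in Cy-5 alone without C10-434 and -0.25 there within slides; Peg3 with hypothalamus to -0.32, -0.22 and -0.40 under the same settings, -0.21 without the 2 farthest arrays, -0.10 without C10-434, -0.07 in Cy-5 alone without the 2 farthest and -0.30 there within slides; Dlk1 with monoamine neurons to -0.01 with floor subtraction and -0.08 without the 2 farthest; and Cdkn1c with monoamine neurons to -0.10 in Cy-5 alone, -0.18 there without the 2 farthest, -0.54 there within slides and -0.31 within slides in the ratio. The causes were not tested. No paired analysis was possible because the labels put no array in a settled group. Signal over background limited Peg10. The Cy-3 signal of Magel2 was low, at 61.2 to 227, yet well above background on all 10 arrays. The part of background in its Cy-3 values was not tested.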
